A study of Mus musculus with 21 samples.

Results

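The Toll-like receptors of the mouse lung, with the co-receptors Cd14 and Ly96 and the adaptor Myd88, were followed after 1 dose of a fungal extract. The members were the 10 genes Tlr1, Tlr2, Tlr3, Tlr4, Tlr6, Tlr7, Tlr9, Cd14, Ly96 and Myd88, chosen as every probe set whose platform annotation gives one of these symbols. They had 14 probe sets of 22626 on the array, and were 10 of 12393 genes. RNA of 21 left lungs, 1 per array, came from BALB/c females aged 8 weeks. A single intratracheal aspiration had delivered 20 µg of MACA, a crude antigen preparation of the fungus Metarhizium anisopliae, in 50 µl of Hank's balanced salt solution (HBSS). Control mice had received the same dose of bovine serum albumin (BSA), an unrelated protein, or the salt solution alone. Lungs were taken 3 h or 12 h later, which gave 6 groups: MACA at 3 h (n = 4), BSA at 3 h (n = 3), HBSS at 3 h (n = 3), MACA at 12 h (n = 3), BSA at 12 h (n = 4) and HBSS at 12 h (n = 4). The labels name each array a biological replicate, and all 6 groups share the aspiration itself.

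Toll-like receptors are membrane proteins that recognise conserved microbial structures. Tlr2 pairs with Tlr1 or Tlr6 at the cell surface and binds bacterial and fungal lipoproteins and wall components, Tlr4 binds lipopolysaccharide together with Ly96 (also called MD-2) and Cd14, and Tlr3, Tlr7 and Tlr9 sense nucleic acids inside endosomes. All of these receptors but Tlr3 signal through the adaptor Myd88, and most of that signal ends in NF-kB, a family of transcription factors that is held inactive until the receptor is engaged. In lung, alveolar macrophages, recruited monocytes and neutrophils carry most surface receptors of the family, and epithelial and endothelial cells also express some of them.

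Promoters of 3 members are shown because Tlr2 and Myd88 were the members that passed against both HBSS and BSA at both times, and Tlr3 passed in none of these comparisons. The sequences are from RefSeq on GRCm38.p6 and hold 250 bases before to 50 bases after a start site listed there, all on the minus strand: Tlr2 at chr3:83841559-83841858, Myd88 at chr9:119339969-119340268 and Tlr3 at chr8:45410331-45410630. Capitals mark matches to the NF-kB consensus in Tlr2 and Tlr3, and to the interferon response element letters GAAANNGAAA in Myd88, each searched on both strands. The listed site is the annotated gene start for Myd88, whereas the annotated genes of Tlr2 and Tlr3 begin further upstream, so distances are from the listed site.
Tlr2: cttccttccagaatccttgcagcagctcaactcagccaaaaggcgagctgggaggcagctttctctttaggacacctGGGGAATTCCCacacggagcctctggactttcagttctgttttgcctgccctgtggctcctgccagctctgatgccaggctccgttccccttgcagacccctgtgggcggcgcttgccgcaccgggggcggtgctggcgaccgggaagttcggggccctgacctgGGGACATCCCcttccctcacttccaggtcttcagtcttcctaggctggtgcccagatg
Myd88: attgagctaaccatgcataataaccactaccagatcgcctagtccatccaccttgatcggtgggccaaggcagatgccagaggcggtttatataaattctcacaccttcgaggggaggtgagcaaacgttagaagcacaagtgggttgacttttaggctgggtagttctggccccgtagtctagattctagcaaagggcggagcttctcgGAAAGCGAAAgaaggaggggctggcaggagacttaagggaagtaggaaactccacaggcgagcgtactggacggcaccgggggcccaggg
Tlr3: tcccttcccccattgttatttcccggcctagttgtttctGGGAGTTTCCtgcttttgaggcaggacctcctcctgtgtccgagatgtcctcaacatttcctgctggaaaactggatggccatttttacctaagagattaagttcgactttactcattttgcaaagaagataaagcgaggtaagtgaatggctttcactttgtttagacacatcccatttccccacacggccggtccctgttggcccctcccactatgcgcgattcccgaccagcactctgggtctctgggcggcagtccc
The Tlr2 promoter held a pair of overlapping NF-kB matches that began 173 and 172 bases before the listed site, and another that began 8 bases before it. The Tlr3 promoter held 1 such match, 211 bases before its listed site. The match in Myd88 began 40 bases before its site. Of all 32851 mouse promoters of this length, 4.51% held the NF-kB consensus, 3.44% held GAAANNGAAA and 7.81% held the AP-1 letters TGANTCA. Among the other members, 1 of the Tlr6 promoters held 2 overlapping matches to GAAANNGAAA, that of Tlr9 held TGANTCA, and those of Tlr1 held none of the 3 motifs. A match is a description of these letters and not a binding site. No promoter of Cd14, Ly96, Tlr4 or Tlr7 was used here.

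Values are given as log2(intensity + 16) after quantile normalization, so that 1 unit is close to a 2-fold difference for bright genes and understates it for dim ones. A probe set counted as above noise over an intensity of 40.9, or 5.83 on this scale. Deposited array medians ran from 93.5 to 288, a 3.08-fold range. A spiked-in hybridisation control split the arrays by its 3′ to 5′ ratio into 8 arrays at 0.939 to 1.22 and 13 arrays at 1.62 to 1.91, here called the low-ratio and high-ratio arrays. Low-ratio arrays were all 4 of HBSS 12 h and replicates 3 and 4 of both MACA 3 h and BSA 12 h. At 12 h no set holds both MACA and HBSS arrays, so there the set enters as a term estimated in MACA 3 h and BSA 12 h. For HBSS 12 h this assumes that its arrays shift as the low-ratio arrays of those groups do, which was not tested. The dimmer Tlr3 probe set lay at 5.31 to 5.95 on those arrays and at 7.13 to 7.68 in HBSS 12 h. Differences from HBSS 12 h with this term carry that limit. The 3′ to 5′ ratio of Gapdh, a sign of RNA quality, was 0.913 to 1.10 on 20 arrays and 1.49 on BSA 12 h replicate 4, which was the lowest of its group for Cd14 and Tlr2. All 9 measured alveolar epithelial and all 10 endothelial markers were above noise on at least 1 array of each group. Of 5 measured thymus and lymph node markers, Rag2, Dntt and Glycam1 were above it on no array. Rag1 was above it only in MACA 3 h, and Cd1d1 on at least 1 array of each group.

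Of the 10 members, 4 rose 3 h after MACA against HBSS, where 8.12% of all genes passed an adjusted p of 0.05 in either direction and 4.84% rose. They were Cd14, Tlr2, Myd88 and Tlr1. At 12 h, 3 rose, namely Tlr2, Myd88 and Tlr1, against a background of 20.2% of genes called and 10.2% higher. No member fell in either comparison. The median log2 fold of the 10 members was 0.52 at 3 h and 0.57 at 12 h, beside -0.02 and -0.0010 for all genes. Against BSA, Tlr2, Myd88 and Tlr7 passed at 3 h, where 5.95% of genes passed and 3.5% were higher. Tlr2 and Myd88 passed at 12 h, where 9.65% passed and 4.07% were higher. For BSA, 0 members passed against HBSS at 3 h with limma (1 at an unadjusted p under 0.05, background 0.178%) and 1, Tlr1, at 12 h (background 1.35%). The comparisons with HBSS share the HBSS arrays, and those with MACA share the MACA arrays, so they are not independent of each other. The members and the gene lists below were chosen with earlier results of these data known, so their counts are descriptive.

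**Figure D1:**
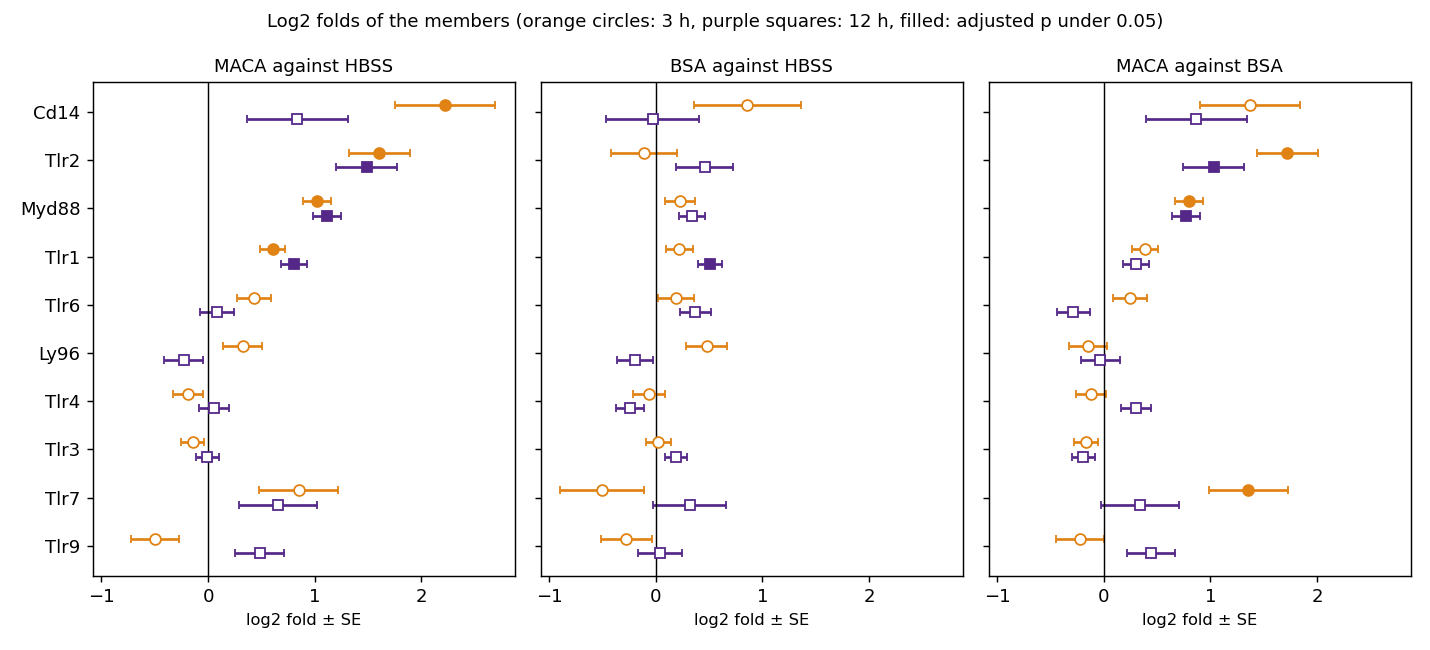
Log2 fold with its standard error (horizontal axis) of each member (vertical axis) for the differences MACA less HBSS, BSA less HBSS and MACA less BSA, at 3 h (orange circles) and 12 h (purple squares). Filled symbols passed an adjusted p of 0.05, and Tlr7 and Tlr9 lay mostly under the noise level. Filled symbols lie to the right of 0 for Cd14, Tlr2, Myd88 and Tlr1 against HBSS.

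Cd14 is the surface protein that hands lipopolysaccharide and other ligands to Tlr4 and Tlr2. Its values were 12.17, 12.69, 12.59 and 12.61 in MACA at 3 h, 11.15, 11.02 and 11.27 in BSA, and 11.27, 10.45 and 9.15 in HBSS. All 4 MACA arrays lay above all 6 control arrays, and the HBSS arrays were spread over more than 2 units. Cd14 rose by 2.23 ± 0.47 (SE) against HBSS, a 4.68-fold difference (limma, adjusted p = 0.0082). Without HBSS replicate 3, the lowest of that group, the difference was 1.66 and the call was lost (adjusted p = 0.057). Within the high-ratio arrays it was 2.14 (adjusted p = 0.0472). Against BSA the groups did not overlap either, but the difference of 1.37 ± 0.47 did not pass (adjusted p = 0.0983), although it did with only the groups compared (adjusted p = 0.0265). BSA less HBSS was 0.86 (95% interval -0.21 to 1.92) with groups overlapping, and did not pass.

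At 12 h Cd14 read 10.71, 11.33 and 11.07 in MACA, 11.28, 10.74, 9.35 and 9.30 in BSA, and 10.69, 10.47, 9.75 and 9.89 in HBSS. The MACA arrays lay just above the HBSS arrays and overlapped with the BSA arrays, whose high pair was high-ratio and whose low pair was low-ratio. The difference from HBSS was 0.84 (95% interval -0.16 to 1.84, adjusted p = 0.235), or 0.085 with the array set as a term, and that from BSA was 0.87 (adjusted p = 0.274). Among high-ratio arrays the difference from BSA was 0.03. From 3 h to 12 h in MACA lungs Cd14 differed by -1.48 ± 0.47 with groups apart (adjusted p = 0.0547). With the array set as a term this difference was -1.86 and passed (adjusted p = 0.0246). Without that term it passed when HBSS 3 h replicate 1 or 3 or BSA 12 h replicate 1, 3 or 4 was left out (adjusted p = 0.0289 to 0.0445). Those arrays are in neither MACA group and enter through the spread, which the fit takes from all 6 groups. The SD of Cd14 was 1.07 in HBSS 3 h and 0.99 in BSA 12 h, beside 0.23 in MACA 3 h and 0.31 in MACA 12 h. Whether the MACA to HBSS difference itself changed between the times did not pass (-1.39 ± 0.67, adjusted p = 0.258).

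**Figure D2:**
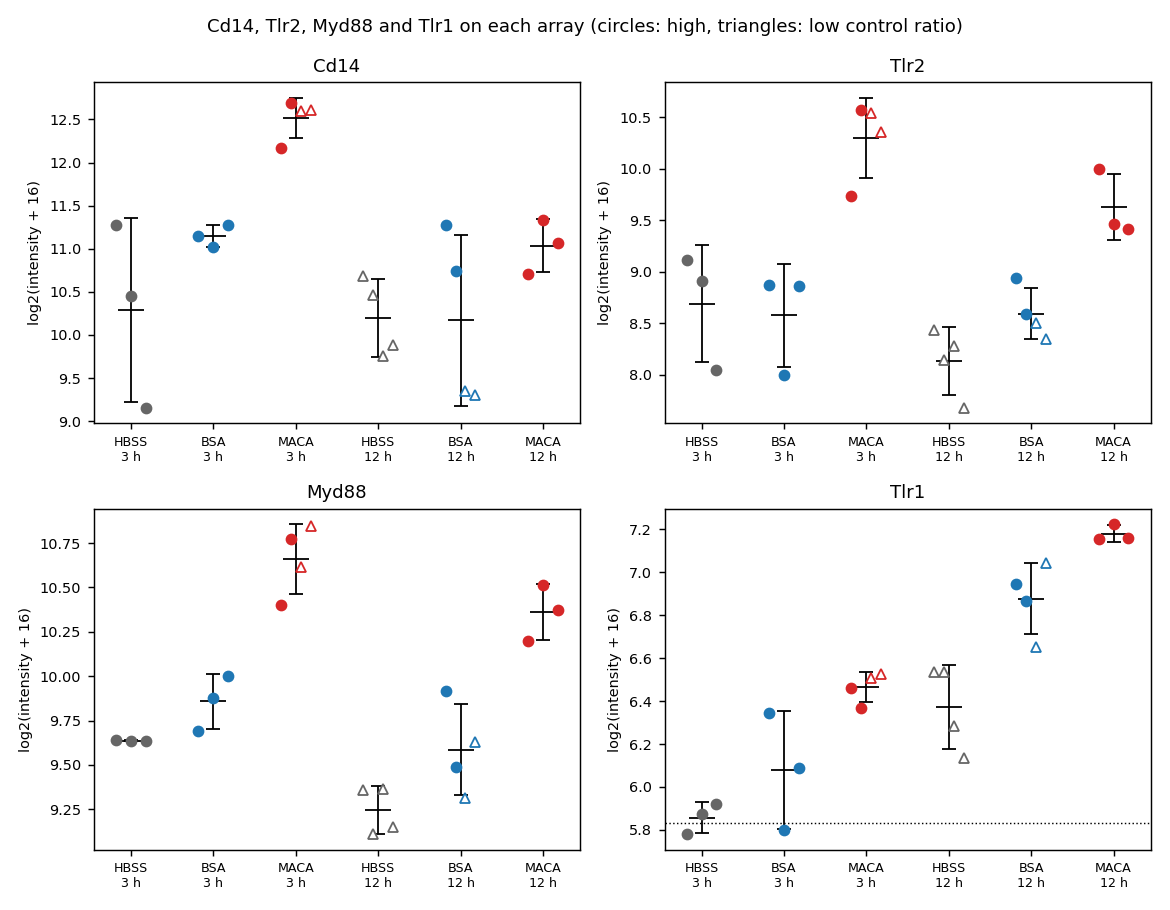
Level, as log2(intensity + 16), of Cd14, Tlr2, Myd88 and Tlr1 on each of the 21 arrays, by group. Circles are high-ratio and triangles low-ratio arrays, black bars are the mean ± SD, and the dotted line for Tlr1 is the noise level; vertical scales differ and do not start at 0. The MACA 3 h arrays of Cd14, Tlr2 and Myd88 stand above all BSA and HBSS arrays, whereas Tlr1 is higher at 12 h than at 3 h under each agent.

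The partners of Cd14 in lipopolysaccharide sensing differed from it. Tlr4, the signalling receptor, read 7.99, 7.95, 7.70 and 8.01 in MACA at 3 h, beside 8.05, 8.11 and 7.94 in BSA and 8.03, 8.16 and 8.10 in HBSS. At 12 h it read 7.92, 8.04 and 8.16 in MACA, 8.01, 8.01, 7.32 and 7.63 in BSA, and 7.85, 8.23, 7.93 and 7.93 in HBSS. The low-ratio BSA 12 h replicates 3 and 4, at 7.32 and 7.63, were the lowest, and the other arrays lay between 7.70 and 8.23. The MACA 3 h arrays lay just below the HBSS 3 h arrays. Tlr4 passed in none of the 11 comparisons with limma, and 0 were under an unadjusted p of 0.05. The MACA to HBSS difference was -0.19 (95% interval -0.49 to 0.11) at 3 h and 0.06 (-0.24 to 0.36) at 12 h, so a rise of the size of that in Tlr2 lies outside both intervals. The second Tlr4 probe set gave 0.17 and -0.13 and passed nowhere. With the array set as a term, Tlr4 was lower in BSA than in HBSS at 12 h by -0.41 (adjusted p = 0.037), against -0.24 (adjusted p = 0.37) without it. That term is not estimated in HBSS 12 h.

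Ly96, the small secreted protein that holds the lipid of lipopolysaccharide against Tlr4, was close to the noise level. It read 6.23, 6.61, 6.31 and 6.35 in MACA at 3 h, 6.62, 6.34 and 6.62 in BSA, and 5.99, 6.09 and 6.07 in HBSS. The 12 h arrays read 6.47, 6.58 and 6.67 in MACA, 6.84, 7.08, 6.12 and 6.40 in BSA, and 6.84, 7.12, 6.72 and 6.54 in HBSS. The HBSS arrays were the lowest at 3 h and among the highest at 12 h. Ly96 rose from 3 h to 12 h in HBSS lungs by 0.75 ± 0.18 (adjusted p = 0.0197), and this call was lost when HBSS 3 h replicate 1 or 3 or HBSS 12 h replicate 2 was left out. The 3 h arrays were all high-ratio and the 12 h arrays all low-ratio, and with the array set as a term the difference was 1.15 (adjusted p = 0.00453). The term comes from other groups, and its size in HBSS lungs was not tested. BSA less HBSS at 3 h was 0.48 with groups apart and did not pass (adjusted p = 0.385). MACA against HBSS gave 0.33 (adjusted p = 0.299) at 3 h and -0.23 (adjusted p = 0.42) at 12 h. The latter became -0.63 (adjusted p = 0.0497) with the array set as a term, under the same limit.

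Tlr2, the receptor for lipoproteins and fungal wall components, had the largest differences among the receptors above noise. At 3 h it read 9.74, 10.56, 10.54 and 10.36 in MACA, 8.87, 8.00 and 8.86 in BSA, and 9.11, 8.91 and 8.05 in HBSS. At 12 h it read 9.996, 9.47 and 9.42 in MACA, 8.94, 8.59, 8.50 and 8.35 in BSA, and 8.44, 8.14, 8.28 and 7.68 in HBSS. At each time every MACA array was above every control array, and the controls overlapped each other. Tlr2 rose by 1.61 ± 0.29 against HBSS at 3 h, which is 3.05-fold (adjusted p = 0.00266), and by 1.49 ± 0.29 at 12 h, which is 2.81-fold (adjusted p = 0.002). Within the high-ratio arrays the 3 h difference was 1.46 (adjusted p = 0.0767, 2 MACA arrays). At 12 h no array set holds both groups, and with the set as a term the difference was 1.47 (adjusted p = 0.0225). Both calls were lost without scaling between arrays, at 1.72 for 3 h (adjusted p = 0.0575) and 0.83 for 12 h (adjusted p = 0.111), where the median of all genes moved by -0.57. With only the groups compared, the 3 h call was lost as well (adjusted p = 0.0517).

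Against BSA, Tlr2 rose by 1.72 ± 0.29 at 3 h (adjusted p = 0.00243) and by 1.03 ± 0.29 at 12 h (adjusted p = 0.0321). In the high-ratio arrays alone these were 1.57 (adjusted p = 0.0944) and 0.86 (adjusted p = 0.295), and with the array set as a term the 12 h difference of 1.02 did not pass (adjusted p = 0.0789). With only the groups compared neither passed (adjusted p = 0.066 and 0.0769), and without the 4 low-ratio MACA and BSA arrays the 3 h call was lost too (adjusted p = 0.0503). The 12 h call was further lost without any 1 of the 3 MACA arrays or of BSA replicates 2, 3 and 4, with differences from 0.85 to 1.14 over all arrays left out in turn. BSA against HBSS gave -0.11 at 3 h and 0.46 at 12 h, and neither passed. From 3 h to 12 h in MACA lungs Tlr2 differed by -0.67 ± 0.29 (adjusted p = 0.154).

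Tlr1, which pairs with Tlr2 to bind triacylated lipoproteins, was a dim gene whose level differed by time as well as by agent. At 3 h it read 6.46, 6.37, 6.51 and 6.53 in MACA, 6.35, 5.80 and 6.09 in BSA, and 5.78, 5.87 and 5.92 in HBSS. At 12 h it read 7.15, 7.22 and 7.16 in MACA, 6.95, 6.87, 6.65 and 7.04 in BSA, and 6.54, 6.53, 6.28 and 6.14 in HBSS. The MACA arrays lay above all control arrays at each time, while 2 of 3 HBSS and 2 of 3 BSA arrays at 3 h were above noise. Tlr1 rose against HBSS by 0.61 ± 0.12 at 3 h (adjusted p = 0.00512) and by 0.81 ± 0.12 at 12 h (adjusted p = 0.000317), and within the high-ratio arrays by 0.56 at 3 h (adjusted p = 0.0451). Without scaling between arrays these were 0.70 and 0.20 and did not pass (adjusted p = 0.244 and 0.504). Against BSA the differences of 0.39 and 0.30 did not pass, with groups apart at both times (adjusted p = 0.0681 and 0.126), and the first passed without BSA 3 h replicate 1 (adjusted p = 0.0334).

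Tlr1 was also the 1 member that passed for BSA against HBSS at 12 h, by 0.50 ± 0.11 (adjusted p = 0.0373). That call rests on the settings: same-numbered arrays of these 2 groups deviated together (correlations of 0.136 to 0.339), and with the replicate number as a block in these groups alone the adjusted p was 0.209. Leaving out any 1 of BSA replicates 1 and 4, HBSS replicates 2, 3 and 4 or HBSS 3 h replicate 2 ended the call as well, and within the low-ratio arrays the difference was 0.48 (adjusted p = 0.15). From 3 h to 12 h Tlr1 rose under each agent. The difference was 0.72 ± 0.12 in MACA (adjusted p = 0.00119), 0.80 ± 0.12 in BSA (adjusted p = 0.00145) and 0.52 ± 0.12 in HBSS (adjusted p = 0.0163). The last was lost with the array set as a term (adjusted p = 0.0722) and without HBSS 3 h replicate 1 or HBSS 12 h replicate 2. It was the single member called in MACA and in BSA between the times, where 10.7% and 5.3% of genes passed, and with Ly96 1 of 2 in HBSS, where 7.88% passed.

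Tlr6, the other partner of Tlr2, passed in none of the 11 comparisons with limma, and 4 were under an unadjusted p of 0.05. It read 6.60, 6.59, 6.55 and 6.31 in MACA at 3 h, 6.38, 6.03 and 6.39 in BSA, and 6.42, 6.04 and 5.78 in HBSS. At 12 h it read 6.60, 5.93 and 6.50 in MACA, 6.70, 6.51, 6.69 and 6.62 in BSA, and 6.29, 6.32, 6.35 and 6.09 in HBSS. The groups overlapped except that the BSA 12 h arrays lay above the HBSS 12 h and BSA 3 h arrays. MACA less HBSS was 0.43 (95% interval 0.10 to 0.77, adjusted p = 0.105) at 3 h and 0.08 (-0.25 to 0.42, adjusted p = 0.784) at 12 h. The former passed without HBSS 3 h replicate 1 (0.60, adjusted p = 0.0447).

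Of the endosomal receptors, Tlr3 alone was well above noise. Tlr3, the sensor of double-stranded RNA, read 8.76, 8.90, 8.29 and 8.91 in MACA at 3 h, 8.91, 8.96 and 8.78 in BSA, and 8.81, 8.84 and 8.92 in HBSS with its brighter probe set. At 12 h it read 8.87, 8.88 and 8.94 in MACA, 8.98, 9.07, 9.13 and 9.19 in BSA, and 8.86, 8.92, 8.91 and 8.93 in HBSS. Apart from MACA 3 h replicate 3, the arrays lay between 8.76 and 9.19, the BSA 12 h arrays above those of HBSS and MACA at 12 h. Tlr3 passed in none of the 11 comparisons with limma, 0 of them under an unadjusted p of 0.05. Without MACA 3 h replicate 3 it passed for MACA less BSA at 12 h (-0.19, adjusted p = 0.0456) and for 12 h against 3 h in BSA (0.21, adjusted p = 0.0447). That array is in neither comparison, and the differences were -0.19 and 0.21 with it as well. It enters through the spread, which the fit takes from all 6 groups. MACA against HBSS gave -0.14 (95% interval -0.37 to 0.09) and -0.01 (-0.24 to 0.22), so neither interval reaches the rise of Myd88.

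The second, dimmer Tlr3 probe set behaved otherwise. It lay at 5.31 to 5.95 on the low-ratio MACA 3 h and BSA 12 h arrays, 4 in all, and at 6.81 to 7.68 on the other 17. The 4 HBSS 12 h arrays, low-ratio as well, were among the high ones at 7.13 to 7.68. Between low-ratio and high-ratio arrays within groups this probe set differed by -1.26 ± 0.15 (adjusted p = 0.000123 over 22626 probe sets, of which 13.8% passed), whereas the brighter one differed by -0.05 ± 0.10 (adjusted p = 0.828). It passed in none of the comparisons between agents or times. Tlr9 differed in the same fit by -0.60 ± 0.15 (adjusted p = 0.0157), and Cd14 by -0.75 ± 0.41 (adjusted p = 0.249).

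**Figure D3:**
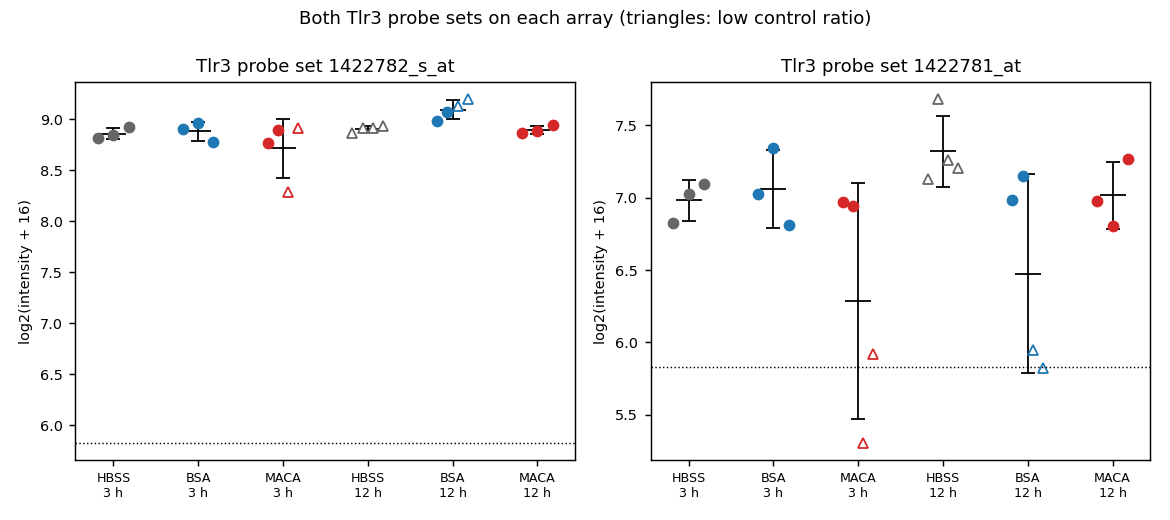
Level, as log2(intensity + 16), of both Tlr3 probe sets on each array, by group (circles: high-ratio arrays, triangles: low-ratio arrays, bars: mean ± SD, dotted line: noise level). In the dimmer probe set (right) the low-ratio MACA 3 h and BSA 12 h arrays lie at 5.31 to 5.95 and the low-ratio HBSS 12 h arrays at 7.13 to 7.68.

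Tlr7, the sensor of single-stranded RNA, and Tlr9, the sensor of unmethylated CpG DNA, lay at or under the noise level. The brightest of 3 Tlr7 probe sets was above noise on 2 of 21 arrays, MACA 3 h replicates 2 and 3, at 6.12 and 6.31. The other MACA 3 h arrays read 5.45 and 5.32, and the BSA 3 h arrays 5.23, 4.00 and 4.10. The groups did not overlap and the comparison passed (adjusted p = 0.0408), but the MACA mean is itself under the noise level, so no fold is given. The call was lost without any 1 of 7 arrays, namely replicate 2, 3 or 4 of MACA 3 h, replicate 2 or 3 of BSA 3 h, replicate 2 of HBSS 3 h or replicate 3 of MACA 12 h, and under 6 of 12 other alternatives. The other Tlr7 probe sets were above noise on 0 arrays. Tlr9 was above noise on 1 of 21 arrays, MACA 12 h replicate 3 at 5.88, and passed in none of the 11 comparisons with limma, 4 of which were under an unadjusted p of 0.05.

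**Figure D4:**
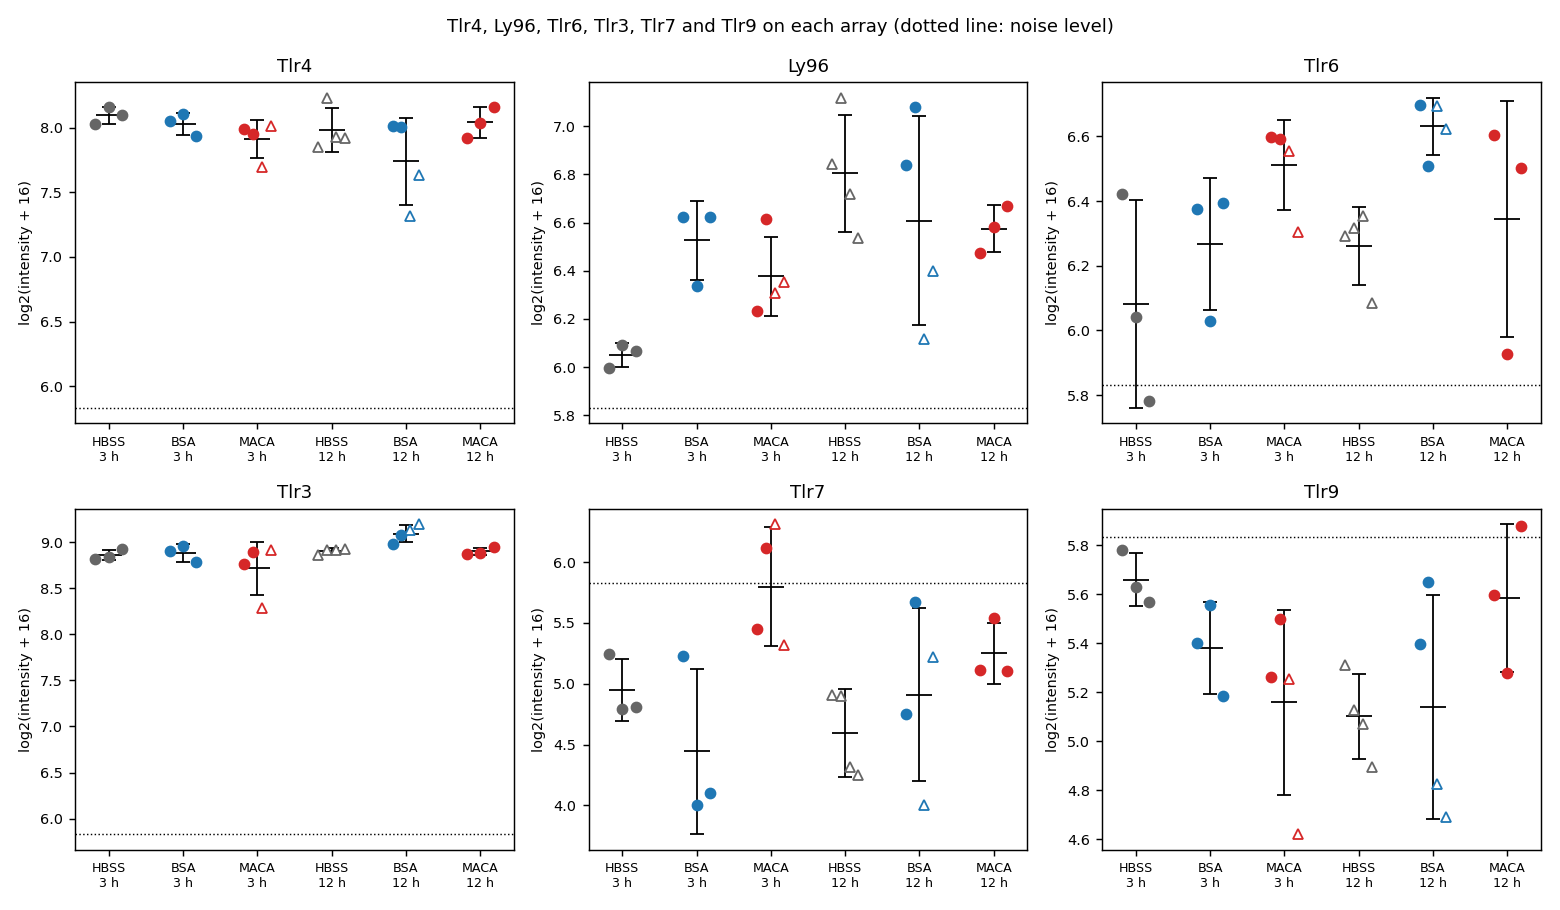
Level, as log2(intensity + 16), of Tlr4, Ly96, Tlr6, Tlr3, Tlr7 and Tlr9 on each array, by group, with the mean ± SD as bars and the noise level of 5.83 as a dotted line (circles: high-ratio arrays, triangles: low-ratio arrays). Tlr4 and Tlr3 are well above the line in every group, and Tlr7 and Tlr9 lie mostly below it.

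Myd88, the adaptor shared by most of these receptors, had the lowest adjusted p of the members against HBSS at both times. At 3 h it read 10.40, 10.77, 10.62 and 10.84 in MACA, 9.69, 9.88 and 10.003 in BSA, and 9.64, 9.63 and 9.64 in HBSS. Its 12 h values were 10.20, 10.51 and 10.37 in MACA, 9.91, 9.49, 9.31 and 9.63 in BSA, and 9.36, 9.11, 9.37 and 9.15 in HBSS. The lowest MACA array lay above the highest control array at each time. Myd88 rose against HBSS by 1.02 ± 0.13 at 3 h, which is 2.03-fold (adjusted p = 0.000176), and by 1.12 ± 0.13 at 12 h, which is 2.17-fold (adjusted p = 6.98e-05). Within the high-ratio arrays the 3 h difference was 0.95 (adjusted p = 0.0127), and at 12 h it was 1.07 with the array set as a term (adjusted p = 0.00218). Without scaling between arrays the calls were lost, at 1.13 for 3 h (adjusted p = 0.0536) and 0.44 for 12 h (adjusted p = 0.187).

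Against BSA, Myd88 rose by 0.80 ± 0.13 at 3 h and 0.77 ± 0.13 at 12 h (adjusted p = 0.00237 and 0.00224). In the high-ratio arrays alone these were 0.73 and 0.66 and did not pass (adjusted p = 0.0651 and 0.0575, with 2 MACA arrays at 3 h and 2 BSA arrays at 12 h). With only the groups compared they did not pass either (adjusted p = 0.0563 and 0.0833). No array left out in turn ended a Myd88 call in these 4 comparisons. Between the times Myd88 passed under no agent, with differences of -0.30 in MACA, -0.27 in BSA and -0.39 in HBSS (adjusted p = 0.174, 0.234 and 0.0808). That in HBSS passed without BSA 12 h replicate 1 (adjusted p = 0.0477).

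Whether a member's response to MACA changed between 3 h and 12 h was tested as an interaction. Of the 10 members, 0 passed with limma for the MACA to HBSS difference (2 at an unadjusted p under 0.05, background 3.91%) and 0 for the MACA to BSA difference (1 unadjusted, background 0.718%). For Tlr2 the change was -0.12 ± 0.41, for Myd88 0.09 ± 0.19 and for Tlr1 0.20 ± 0.17, each against HBSS. The standard errors leave room for changes in either direction, so like responses at the 2 times are not shown.

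Among markers of the cells that carry these receptors, some of neutrophils rose after MACA against HBSS at both times. Those of macrophages and monocytes rose mainly at 12 h, where all MACA arrays were high-ratio and all HBSS arrays low-ratio. Agent and array set cannot be told apart in that comparison. The 14 measured of 17 neutrophil markers summed to an intensity of 8992 to 13896 in MACA at 3 h, against 2133 to 5055 in BSA and 1605 to 4769 in HBSS. At 12 h the sums were 5456 to 9363, 3784 to 7951 and 2269 to 3981. Of the 14, 7 rose against HBSS at 3 h and 6 at 12 h, among them S100a8 by 2.28 ± 0.51 and the receptor Csf3r by 1.95 ± 0.42 at 3 h, while Mpo and Elane, made in immature neutrophils, averaged under noise in the MACA groups. The HBSS 3 h arrays followed the same order in the neutrophil sum, 4769, 3458 and 1605, as in Cd14, and so did the BSA 3 h arrays. In MACA 3 h, MACA 12 h, BSA 12 h and HBSS 12 h the 2 orders differed. The MACA 12 h array with the highest sum, 9363, had the lowest Cd14 of its group, 10.71. The 14 measured of 15 macrophage and monocyte markers summed to 15179 to 17277 in MACA and 15799 to 18341 in HBSS at 3 h, and to 18168 to 20188 and 16432 to 17977 at 12 h. Of these, 1 rose and 1 fell at 3 h and 6 rose at 12 h, with median log2 folds of -0.02 and 0.33. For MACA against HBSS, 8.12% of all genes passed at 3 h and 4.84% rose. At 12 h, 20.2% passed and 10.2% rose. Against BSA, 1 of the macrophage and monocyte markers rose at 3 h and 4 at 12 h, where 3.5% and 4.07% of all genes were higher. The 9 measured of 11 T cell and NK cell markers summed to 1266 to 1897 in MACA at 3 h. The sums were 530 to 1167 in BSA and 734 to 1315 in HBSS. Gzma alone rose at 3 h, against BSA, where 5.95% of all genes passed. The 6 heart and skeletal muscle markers summed to 3829 to 5091 in MACA at 12 h, below the 6724 to 8408 in BSA and 5809 to 9689 in HBSS, and their median log2 fold was -1.06 against BSA and -0.75 against HBSS. Of the 6, Myh6 and Ckm fell against BSA and Myh6 against HBSS, where 9.65% and 20.2% of all genes passed. In whole lung, more cells of a type and more RNA per cell cannot be told apart, and the part of these cells and tissues in the values of Cd14, Tlr2, Myd88 and Tlr1 was not tested.

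The wider pathway was read from 54 listed genes, of which 39 were measured, in 4 groups by role. These lists were chosen with earlier results of these data known, so counts above the share of all genes are not independent evidence. Of the 39, 15 rose at 3 h after MACA against HBSS and 0 fell, and at 12 h 19 rose and 3 fell, beside the 8.12% and 20.2% of all genes called. Their median log2 fold was 0.18 and 0.31. At 12 h the MACA arrays were all high-ratio and the HBSS arrays all low-ratio, so agent and array set cannot be told apart there. Against BSA, 13 rose and 1 fell at each time, beside 5.95% of all genes called at 3 h and 9.65% at 12 h. For BSA against HBSS 0 passed at 3 h with limma (7 at an unadjusted p under 0.05, background 0.178%), and 1 fell at 12 h (background 1.35%).

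At 3 h, 12 of the 15 calls were among the transcription factors and the negative regulators. Of 7 measured transcription factors, 6 rose at 3 h and 5 at 12 h. Nfkb2, the p100 precursor of the p52 subunit, rose by 1.94 ± 0.22 and 1.85 ± 0.22, and Relb, its partner, by 1.91 ± 0.17 and 1.18 ± 0.17. Irf5, a factor that acts downstream of Myd88, rose by 0.91 ± 0.12 and 1.19 ± 0.12, and the interferon regulator Irf7 by 0.70 ± 0.15 and 1.24 ± 0.15. Rel rose at 3 h by 0.96 ± 0.19, with a mean under noise in HBSS, and Irf3, which acts mainly below Tlr3 and Tlr4, passed at neither time (0.16 and 0.14). Of 9 measured negative regulators, 6 rose at 3 h and 5 at 12 h. Tnfaip3 (A20), a ubiquitin-editing inhibitor of NF-kB, rose by 2.62 ± 0.24 at 3 h and 0.95 ± 0.24 at 12 h. Zc3h12a, an RNase that degrades cytokine mRNAs, rose by 2.16 ± 0.21 and 1.502 ± 0.21, and Tnip1, which binds A20, by 1.51 ± 0.15 and 0.90 ± 0.15. Nfkbie, an inhibitor that retains NF-kB in the cytoplasm, rose by 1.35 ± 0.19 and 1.03 ± 0.19. Socs1, an inhibitor of cytokine signalling, rose by 1.39 ± 0.26 at 3 h and was at least 2.02-fold higher at 12 h. Tollip and Tank did not pass (Tollip -0.09 and 0.34, Tank 0.32 and 0.20).

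**Figure D5:**
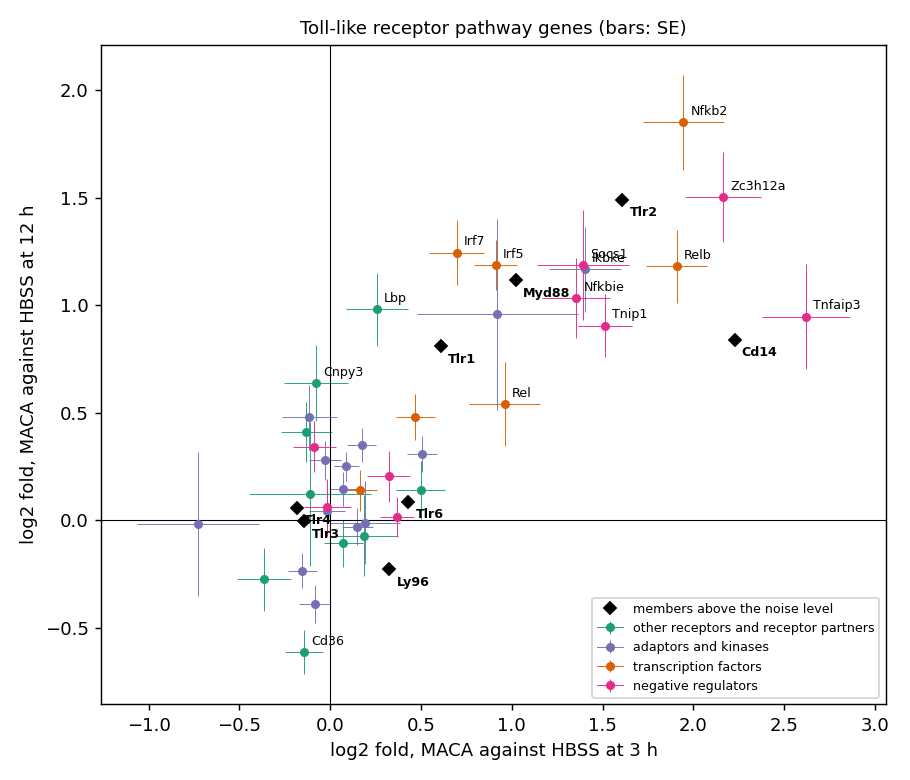
Log2 fold of the 39 measured pathway genes for MACA against HBSS at 3 h (horizontal axis) and at 12 h (vertical axis), with standard errors as bars and colours by role, dim genes included. Black diamonds are the 8 members other than Tlr7 and Tlr9. Cd14 and Tnfaip3 lie far to the right, and Tlr2, Myd88 and Nfkb2 lie high on both axes.

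Among the adaptors and kinases, 2 of 14 measured rose at 3 h, and at 12 h 6 rose and 2 fell. The background was 8.12% of all genes called at 3 h and 20.2% at 12 h. Ikbke, a kinase of the interferon branch, was at least 2.35-fold higher at 3 h and rose by 1.17 ± 0.20 at 12 h. Tirap, which brings Myd88 to Tlr2 and Tlr4, rose by 0.51 ± 0.08 and 0.31 ± 0.08. At 12 h Ikbkb, a catalytic kinase of the IkB kinase complex, rose by 0.48 ± 0.15 and its regulatory subunit Ikbkg fell by 0.39 ± 0.09, while Map3k7 (TAK1), which activates that complex, rose by 0.35 ± 0.08. The ubiquitin-conjugating enzyme Ube2n and the kinase Tbk1 did not pass at either time (Ube2n 0.07 and 0.15, Tbk1 -0.02 and 0.04).

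Among the other receptors and receptor partners, 1 of 9 measured passed at 3 h, and at 12 h 3 rose and 1 fell. Of all genes, 8.12% passed at 3 h and 20.2% at 12 h. The call at 3 h was Cd180, whose groups both lay under noise and overlapped, so no fold is given. At 12 h Lbp, the plasma protein that delivers lipopolysaccharide to Cd14, rose by 0.98 ± 0.17, and Cnpy3, a chaperone of Toll-like receptors, by 0.64 ± 0.18. Ly86, the partner of Cd180, rose by 0.41 ± 0.14 with overlapping groups, and Cd36, a scavenger receptor that works with Tlr2 and Tlr6, fell by 0.61 ± 0.10. Hsp90b1, the chaperone that folds most Toll-like receptors, and Unc93b1, which carries the endosomal ones to their compartment, did not pass at either time (Hsp90b1 0.07 and -0.11, Unc93b1 0.18 and -0.07).

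The members that passed a test and averaged above noise did not all vary alike over the 21 arrays. Pearson's r was 0.89 between Tlr2 and Myd88, 0.82 between Tlr2 and Cd14 and 0.80 between Cd14 and Myd88, against 0.30 between Tlr1 and Tlr2 and 0.04 between Tlr1 and Cd14. Among 8910 genes above noise, the highest r with Myd88 was that of Nfkb2 (0.97), followed by Tgm1 (0.97) and Tnfaip2 (0.95). For Tlr2 they were Clec4e (0.95), Zc3h12a (0.95) and Nfatc1 (0.94), and for Cd14 Gch1 (0.92), Plek (0.92) and Arg2 (0.91). For Tlr1 they were Plac8 (0.90), Cd52 (0.90) and Ms4a4c (0.90), and for Ly96 Psmd14 (0.86), Prr13 (0.85) and Afp (0.85). These values describe arrays that share groups, dose and array set, and carry no test.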

How the data were processed

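Members and gene lists were chosen with earlier results of these data known. The deposited values were intensities on a linear scale, 1 column per array. The sources used here do not give scanner software, summary method or scaling. Between 9.37% and 11.1% of an array's values were below 0. Control probe sets (64) were left out, arrays were quantile normalized, values below 0 were set to 0 and log2(intensity + 16) was taken. Each of 12393 genes was read from its brightest probe set. Noise was put at 40.9, which 95% of the values below 0 did not exceed in size. Folds of a gene under it on every array of 1 group are given as at least N-fold, from the noise level or the dim group's higher values.

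limma (3.58.1, R 4.3.3) fitted 6 group means to 21 arrays with 15 residual degrees of freedom. Benjamini-Hochberg adjusted p under 0.05 over all genes of a comparison was the threshold, in each of 11 comparisons. The fit was tested on simulated data. The p-values measure the spread between these arrays, and their number limits the precision. Other probe sets were fitted over all 22626. Of these, 20380 had 1 gene symbol, 691 several and 1555 none, and 20351 were matched to the GRCm38.p6 gene table by gene number.

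Named were all members, per list up to 4 called genes with the largest log2 fold at each time and up to 2 bright ones not called, and 3 genes of highest correlation per called member above noise. Same-numbered arrays were checked for pairing from the labels' replicate numbers alone: over 48 pairs the deviations correlated from -0.136 to 0.372, and only for BSA and HBSS at 12 h did all 4 pairs exceed 0.1 (0.136 to 0.339). Alternatives changed the scaling, the pseudocount, the filter on dim genes, the choice of probe set, the model, the arrays used and the array set. Python 3.11.15, pandas 2.3.3 and matplotlib 3.10.9 made the promoter search and figures.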

Additional observations from a re-analysis of the deposited data

Results flagged for a closer look

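Each of the 10 members was tested in each group of 4 arrays, 30 tests in all, for an array far from the others, and 1 stood apart. Tlr6 on MACA 3 h replicate 4 read 6.31, and the nearest array of its group read 6.55, so that this gap took 0.853 of the group's whole range. Chance alone singles out about 1 in 20 such groups. With or without this array Tlr6 passed in no agent comparison at 3 h. Of the 20 tests of whether a member's response to MACA changed between 3 h and 12 h, 0 passed with limma, and 3 were under an unadjusted p of 0.05.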

How the results depend on the processing

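The 7 member calls for MACA against HBSS were all lost without scaling between arrays, where the 3 h differences were 2.36 for Cd14, 1.72 for Tlr2, 1.13 for Myd88 and 0.70 for Tlr1, and those at 12 h were 0.83 for Tlr2, 0.44 for Myd88 and 0.20 for Tlr1. Otherwise Tlr1 and Myd88 kept theirs under every alternative run, Tlr2 lost its 3 h call with only the groups compared (adjusted p = 0.0517) and within the high-ratio arrays (adjusted p = 0.0767), and Cd14 lost its own with only the groups compared (adjusted p = 0.0631) and without HBSS 3 h replicate 3 (adjusted p = 0.057). Without scaling, 0 members passed for MACA against HBSS at 3 h, BSA against HBSS at 12 h, MACA against BSA at 3 h and at 12 h, and 12 h against 3 h in MACA and in BSA, while 4 passed for 12 h against 3 h in HBSS, 1 for the interaction of MACA less HBSS with time, and 9 pathway genes for MACA against HBSS at 3 h. Of all 12393 genes, 7672 were called without scaling for 12 h against 3 h in HBSS and 2467 for that interaction. For MACA against HBSS at 3 h, 140 were called. At 12 h for MACA against HBSS, Tlr3 (-0.67, adjusted p = 0.0298) and Ly96 (-0.84, adjusted p = 0.0456) then passed as lower, and over all genes 162 were higher and 5412 lower, beside 1258 and 1251 with scaling. At 3 h the split was 128 higher and 12 lower, beside 600 and 406. For MACA against BSA at 3 h it was 41 and 3, beside 434 and 304, and with scaling to one median 386 and 429. For BSA against HBSS at 12 h it was 6 and 2053, beside 69 and 98, and for 12 h against 3 h in HBSS 7627 and 45, beside 504 and 473. Every member called with scaling kept its sign relative to the median of all genes. That median moved by -0.57 for MACA against HBSS at 12 h, by -0.45 for BSA against HBSS at 12 h and by 0.72 for 12 h against 3 h in HBSS. The Tlr1 difference between BSA and HBSS at 12 h turned to -0.016 without scaling, and was 0.43 relative to that median.

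Members passing for BSA against HBSS at 12 h numbered 0 with scaling to one median, the mean of all probe sets, a robust mean-variance trend, only the groups compared, within the low-ratio arrays, or without the 4 low-ratio MACA and BSA arrays (added after seeing the data), and 2 with the array set as a term. For 12 h against 3 h in MACA, 2 members passed with a pseudocount of 64, dim genes left out, a robust trend, only the groups compared, or the array set as a term. With only the groups compared, 2 passed for MACA against HBSS at 3 h, 1 for MACA against BSA at 3 h (Cd14, which did not pass otherwise, while Tlr2, Myd88 and Tlr7 were lost), 0 at 12 h, 0 for the times in BSA and 4 in HBSS. With the array set as a term, 1 passed for MACA against BSA at 12 h and 1 for the times in HBSS. Within the high-ratio arrays 0 passed for MACA against BSA at either time, and without the 4 low-ratio arrays 1 passed at each. Where a cause is not plain from fewer arrays or genes, the cause was not tested. The share of all genes called is not given for most of these settings, so the counts carry no comparison with a background.

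With the replicate number as a block over all arrays, 1 member, Myd88, passed for MACA against BSA at 12 h, Tlr2 being at an adjusted p of 0.0592, and 2 for 12 h against 3 h in MACA. With the replicate block in BSA and HBSS at 12 h alone (added after seeing the data), 0 passed. The block changed no other count by more than 1.5 times.

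Leaving out each array in turn gave 0 to 1 members for BSA against HBSS at 12 h, 1 to 2 for MACA against BSA at 12 h, 1 to 2 for 12 h against 3 h in MACA and in BSA, and 0 to 2 in HBSS. The member gained for the times in MACA was Cd14, without HBSS 3 h replicate 1 or 3 or BSA 12 h replicate 1, 3 or 4 (adjusted p = 0.0289 to 0.0445). Without MACA 3 h replicate 3, Tlr3 passed for MACA against BSA at 12 h (adjusted p = 0.0456) and for the times in BSA (adjusted p = 0.0447). An array outside the groups compared can change a call in this way, because the fit takes its spread from all 6 groups. Tlr1 passed against BSA at 3 h without BSA 3 h replicate 1 (adjusted p = 0.0334), and Tlr6 against HBSS at 3 h without HBSS 3 h replicate 1 (adjusted p = 0.0447).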

Other observations

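Tlr7 was above noise on 2 of 21 arrays and Tlr9 on 1, and Tlr1, Tlr6 and Ly96 reached at most 7.22, 6.70 and 7.12 beside a noise level of 5.83.

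Dendritic cell markers, 9 measured of 11, summed to an intensity of 2967 to 4159 in MACA at 3 h. The sums were 1543 to 1813 in BSA and 1318 to 1759 in HBSS. Against HBSS, 3 of the 9 (Cd83, Irf4 and Irf8) rose, beside 8.12% of all genes called and 4.84% higher. The list's median log2 fold at 3 h was 0.22 against HBSS and -0.01 against BSA. The maturation marker Cd83 rose by 2.83 ± 0.22 against HBSS at 3 h and by 1.12 ± 0.22 at 12 h (limma, adjusted p = 3.76e-06 and 0.00249). B cell markers, 6 measured of 8, summed to 1130 to 2120 in MACA, 1259 to 1837 in BSA and 614 to 1230 in HBSS at 12 h. Of the 6, 4 rose in MACA against HBSS, beside 20.2% of all genes called and 10.2% higher. Their part in the values of Tlr1, Tlr2, Cd14 and Myd88 was not tested.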
